A study of Mus musculus with 8 samples.

Results

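The genes described here are the 10 neuropeptide genes that cortical neurons are best known for, Sst, Npy, Vip, Cck, Cort, Penk, Pdyn, Tac1, Crh and Adcyap1. They were chosen by symbol from the 55416 genes of the count table. All 10 passed the filter on low counts. Their messages were measured by stranded poly(A) RNA-seq in whole cerebral cortex in 4 libraries labelled AGO2_L192P/+ (L192P) and 4 wild-type libraries (WT). The L192P mice are heterozygous for a knock-in point mutation made with CRISPR/Cas9 in embryos of C57BL/6JUke mice, so they keep a wild-type Ago2 allele in every cell, and founders were crossed to C57BL/6 wild-type animals. Age, sex and the number of founder lines of the sequenced mice are not given in the sources used here. Gene counts cannot show a point mutation, so the genotype rests on the labels.

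A neuropeptide is cut out of a longer precursor protein inside dense-core vesicles and acts on G protein-coupled receptors of nearby cells. In the cortex most peptide genes mark classes of GABAergic interneurons. Sst, Cort and Npy belong to interneurons of the medial ganglionic eminence lineage and to neurogliaform cells, Vip and Crh to another interneuron class, and Cck to a basket cell type and also to many pyramidal cells. Adcyap1 is made by pyramidal cells. Penk, Pdyn and Tac1 are made by some cortical neurons and, in much larger amounts, by the projection neurons of the neighbouring striatum. AGO2, the mutated protein, carries microRNAs to matching sites in 3′ UTRs and lowers the output of those messages.

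The libraries held 20396357 to 43575900 counts, of which the 10 genes together took 0.0956% to 0.134%. Replicate 1 of both genotypes stood apart from the other 6 libraries on Xist, the X-inactivation RNA, with 0.934 and 1.82 normalized counts against 5185 to 7257. Genes of chromosome Y held 3547 and 3534 raw counts in replicate 1 of L192P and WT, against 186 to 573 in the other 6 libraries. By these values replicate 1 was male and the other 6 libraries female, although no label states sex. The part of sex in the peptide values was not tested. L192P replicate 1 also held the lowest L192P value of 9 of the 10 peptide genes, whereas WT replicate 1 held the lowest WT value of 2. Of 11 markers of cortical excitatory neurons, such as Slc17a7, Tbr1 and Cux2, none was at 0 in any library, and their summed level was 42918 to 50084 normalized counts. All normalized counts given here are raw counts over the DESeq2 size factor of each library.

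Penk and Cck fell in L192P cortex, and none of the 10 genes rose (DESeq2, Benjamini-Hochberg adjusted p under 0.05 over all genes). Over all 18627 genes tested, 1.36% were called, 0.569% as lower and 0.789% as higher. With the replicate number as a block, the lower calls were Penk, Cck and Npy, against a background of 2.43% lower and 1.82% higher. In 4 of the 10 genes, Penk, Cck, Npy and Cort, every L192P library lay below every WT library, a pattern shown by 2.96% of all tested genes, and in none did every L192P library lie above, which 3.01% of genes showed. The median log2 fold change of the 10 was -0.20, against 0.0019 over all tested genes. Without both replicate 1 libraries the only call among the 10 was Npy. The calls also depend on the test. edgeR and the limma fits called none of the 10 while calling 0.314% (edgeR), 0.266% (limma-voom) and 0.294% (limma-trend, with either pseudocount) of all genes. Of the 10, 4 had an unadjusted DESeq2 p under 0.05. The share of all genes under that value was not computed, so such counts, here and for the lists below, are descriptions only. In bulk tissue, fewer cells of a type and less RNA per cell cannot be told apart.

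**Figure D1:**
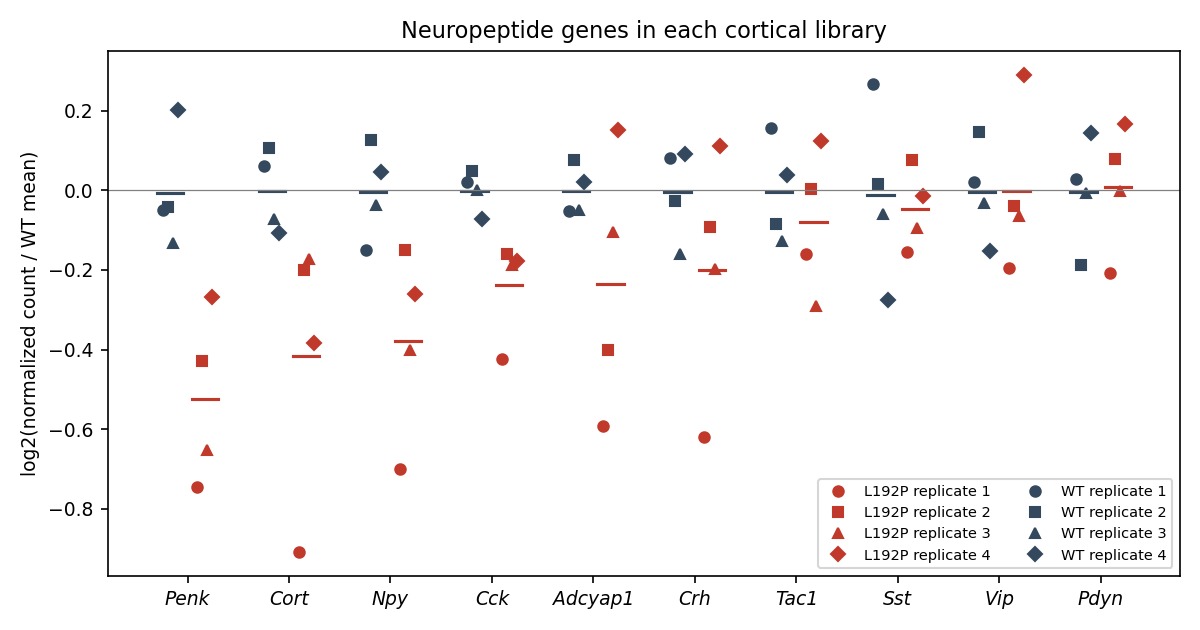
Normalized count of each peptide gene in each library, as log2 of its ratio to the WT mean (vertical axis), for 4 WT (dark) and 4 L192P (red) libraries, with short lines at the mean of each group. Penk, Cort, Npy and Cck have all 4 L192P points under all 4 WT points, and the circle of L192P replicate 1 is the lowest red point in 9 of the 10 genes.

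Penk encodes proenkephalin, the precursor of Met- and Leu-enkephalin. It lies on chromosome 4 (GRCm39, 4132722 to 4141856, minus strand). Its normalized counts were 6334, 7883, 6750 and 8814 in L192P replicates 1 to 4 and 10246, 10306, 9680 and 12205 in the WT replicates. The groups did not overlap. The mean was 7445 ± 1123 in L192P and 10610 ± 1101 in WT (SD, n = 4), and Penk fell by 29.8% (log2 fold change -0.51, SE 0.10, adjusted p = 0.000286, DESeq2). The adjusted p stayed under the threshold when any single library was left out, and was 0.0595 without both replicate 1 libraries and 0.0535 to 0.0554 by edgeR and limma. An RNA annotated on the other strand, A830012C17Rik, shares 390 exonic bases with Penk. It had 4 counts in L192P replicate 2 and 0 in every other library. Cck shares 418 and 276 exonic bases with the antisense RNAs Gm68675 and Gm69828, and Adcyap1 shares 267 with Gm32465, which were not analysed here.

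Enkephalins act on the delta and mu opioid receptors. Oprd1, the delta receptor, had normalized counts of 262, 296, 204 and 244 in L192P and 306, 279, 260 and 345 in WT (log2 fold change -0.24, SE 0.14, adjusted p = 0.631, DESeq2). The groups overlapped in this gene. Oprm1, the mu receptor, was near the detection floor, with 14.8 to 27.1 in L192P and 9.60 to 25.7 in WT.

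Markers of striatal projection neurons leaned the same way as Penk. Of 11 such genes, 10 had a fold change below 0, with a median log2 fold change of -0.25, and 1 was called, as lower. This was Sh3rf2, a scaffold protein gene, with a log2 fold change of -0.61 (SE 0.12, adjusted p = 0.000194, DESeq2). With the replicate block 5 of the 11 were called, all lower, and without L192P replicate 1, WT replicate 1 or both the number called was 2, 3 and 4. The summed level of the 11 was 23345 to 30367 normalized counts in L192P and 30179 to 36698 in WT, so the groups overlapped slightly, and none of the 11 was at 0 in any library. Whether the amount of striatal tissue or RNA had a part in the Penk difference was not tested.

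Adora2a, the adenosine receptor of the striatal neurons that make enkephalin, gives a reference within each library. The ratio of Penk to Adora2a was 3.62 in L192P and 4.23 in WT (geometric means). On the log2 scale it was 1.69, 1.90, 1.87 and 1.96 in L192P and 2.20, 1.98, 2.07 and 2.06 in WT. All 4 L192P values were below all 4 WT values, with a difference of -0.22 (exact two-sided permutation test, p = 0.0286, the smallest p that 4 against 4 libraries allow, and 0.286 after adjustment over 10 ratios). In the 4 pairs of libraries with the same number the difference was -0.51 to -0.08.

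**Figure D2:**
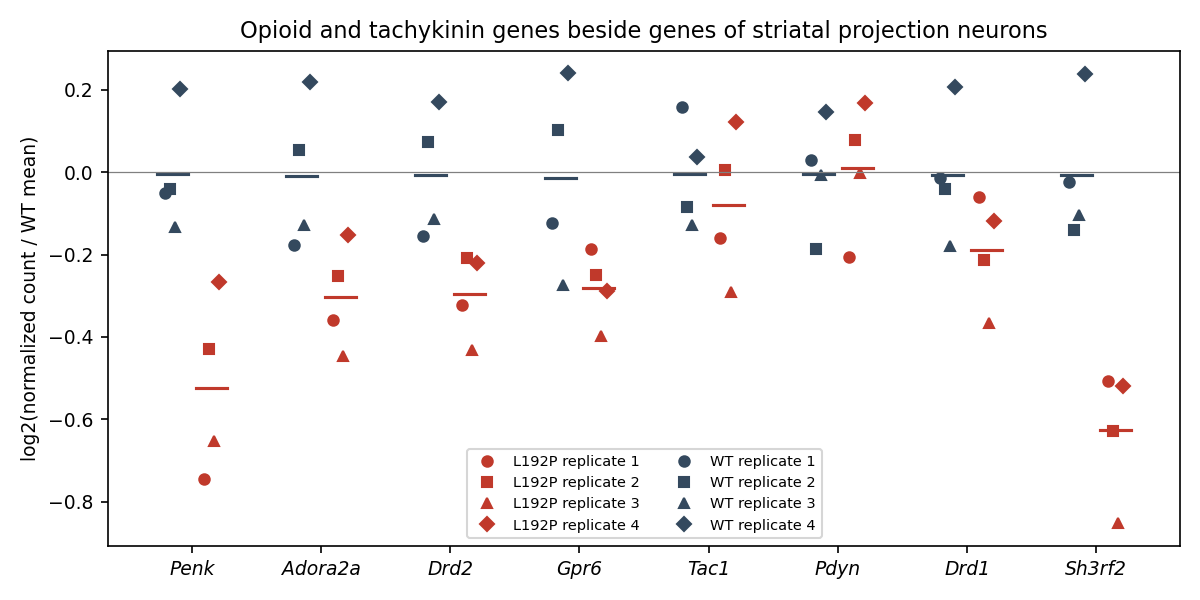
Penk, Tac1 and Pdyn beside genes of striatal projection neurons, as log2 of the normalized count over the WT mean (vertical axis) in 4 WT (dark) and 4 L192P (red) libraries, with short lines at the group means. Penk, Drd2 and Sh3rf2 separate the genotypes, whereas Tac1 and Pdyn have mixed points.

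Pdyn and Tac1 were not called. Pdyn encodes prodynorphin, the precursor of dynorphins (chromosome 2, 129528469 to 129541945, minus strand). It had normalized counts of 1205, 1468, 1389 and 1562 in L192P and 1420, 1222, 1385 and 1538 in WT. The ranges lay almost on top of each other. Its log2 fold change was 0.02 (95% interval -0.17 to 0.20, adjusted p = 0.993, DESeq2). Oprk1, the dynorphin receptor, had a log2 fold change of -0.10 (SE 0.16, adjusted p = 0.950).

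Tac1 encodes the precursor of substance P and neurokinin A (chromosome 6, 7554120 to 7565834, plus strand). The libraries held 1660, 1861, 1517 and 2020 normalized counts in L192P and 2069, 1749, 1698 and 1904 in WT. The groups overlapped, with a log2 fold change of -0.07 (95% interval -0.26 to 0.12, adjusted p = 0.928, DESeq2). Direct-pathway neurons of the striatum make both Pdyn and Tac1 together with the dopamine receptor Drd1. The log2 ratio of Pdyn to Drd1 was 0.20 higher in L192P (exact two-sided permutation test, p = 0.200) and that of Tac1 to Drd1 was 0.11 higher (p = 0.343), and both were 0.333 or above after adjustment over the 10 ratios.

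Cck encodes cholecystokinin (chromosome 9, 121315695 to 121324863, minus strand), the precursor of the octapeptide that acts on Cckbr in the brain. Its normalized counts were 5946, 7132, 7001 and 7053 in L192P and 8093, 8240, 7978 and 7577 in WT. The groups did not overlap. The mean was 6783 ± 561 in L192P and 7972 ± 284 in WT (SD, n = 4), and Cck fell by 14.9% (log2 fold change -0.23, SE 0.07). The adjusted p was 0.0498, the member value nearest to the threshold on the called side (DESeq2). Leaving out any of the 8 libraries took it to between 0.0563 and 0.212, leaving out both replicate 1 libraries gave 0.0598, and edgeR and limma gave 0.169 to 0.178, so the call rests on the full set of libraries and on this test.

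The receptors of cholecystokinin were not called. Cckbr had 928, 849, 709 and 910 normalized counts in L192P and 780, 1171, 883 and 1007 in WT (log2 fold change -0.18, SE 0.12, adjusted p = 0.747, DESeq2). Cckar was at 9.60 to 22.4 in all libraries. Slc17a7, the vesicular glutamate transporter of pyramidal cells, had a log2 fold change of -0.13 (SE 0.05, adjusted p = 0.292, and 0.0431 with the replicate block). The log2 ratio of Cck to Slc17a7 differed by -0.10, at -2.16 ± 0.20 in L192P against -2.06 ± 0.07 in WT (SD, n = 4, exact two-sided permutation test, p = 0.457). Without L192P replicate 1 the difference was -0.0041.

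Sst, Cort and Npy are made by overlapping interneuron types and had different point estimates. Sst encodes somatostatin (chromosome 16, 23707321 to 23711733, minus strand). Its normalized counts were 5109, 5996, 5323 and 5631 in L192P and 6835, 5749, 5460 and 4696 in WT. All L192P values lay inside the WT range. The log2 fold change was -0.04 (95% interval -0.24 to 0.15, adjusted p = 0.970, DESeq2), and its sign turned without WT replicate 1 (0.06).

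Cort encodes cortistatin, a peptide close to somatostatin that binds the same receptors (chromosome 4, 149209491 to 149211266, minus strand). It had 115, 188, 191 and 165 normalized counts in L192P and 225, 232, 205 and 200 in WT. The groups did not overlap, and L192P replicate 1 was the lowest. The log2 fold change was -0.40 (95% interval -0.71 to -0.08), the adjusted p 0.295 (DESeq2), so Cort did not pass the test. Without both replicate 1 libraries its log2 fold change was -0.24. The log2 ratio of Cort to Sst differed by -0.38 (exact two-sided permutation test, p = 0.0571, adjusted 0.286). It was lower in L192P in all 4 pairs of libraries with the same number, with differences of -0.55 to -0.06 (exact two-sided sign-flip permutation test, p = 0.125, the smallest that 4 pairs allow, and 0.417 after adjustment over the 10 ratios).

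Npy encodes neuropeptide Y (chromosome 6, 49799026 to 49806489, plus strand), which acts on Npy1r, Npy2r and Npy5r. It had 1123, 1642, 1381 and 1522 normalized counts in L192P and 1644, 1992, 1777 and 1881 in WT. The groups touched without overlapping, since L192P replicate 2 and WT replicate 1 were nearly equal. The log2 fold change was -0.37 (SE 0.11) with an adjusted p of 0.0519, the member value just outside the threshold. With the replicate block the adjusted p was 1.53e-05 (log2 fold change -0.37, SE 0.07). It was 0.00897 without L192P replicate 2, 0.00857 without WT replicate 1 and 0.00812 without both replicate 1 libraries, whereas the other single omissions kept it between 0.0635 and 0.243. The log2 ratio of Npy to Sst differed by -0.34 (exact two-sided permutation test, p = 0.114, adjusted 0.286). It too was lower in all 4 pairs, with differences of -0.57 to -0.13 (exact two-sided sign-flip permutation test, p = 0.125, adjusted 0.417).

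The promoters of these genes differ in the cyclic AMP response element (CRE), the CREB binding letters first described in the somatostatin gene. RefSeq promoters (GRCm38.p6) matched 8 of the 10 genes. Penk and Crh had no entry, so their promoters were not searched. The CRE core TGACG, searched on both strands over 250 bases upstream of the start, was in 6 of the 8, in Sst, Cort, Cck, Vip, Tac1 and Adcyap1, and in 19.8% of all genes with a promoter in the table (17.8% of all promoters). The full palindrome TGACGTCA, which contains the core on each strand, was in Sst only and in 1.77% of all genes (1.55% of all promoters). The last 100 bases before the start are shown for Sst, Cort, Cck and Npy, 5′ to 3′ on the strand of the gene, with the core or palindrome in capitals, because the groups overlapped in Sst and not in the 3 others:
Sst, chr16:23890845-23890944, minus strand: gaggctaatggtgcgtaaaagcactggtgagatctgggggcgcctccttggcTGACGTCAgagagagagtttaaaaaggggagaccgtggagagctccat
Cort, chr4:149126764-149126863, minus strand: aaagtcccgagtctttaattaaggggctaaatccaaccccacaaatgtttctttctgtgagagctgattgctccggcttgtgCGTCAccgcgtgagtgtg
Cck, chr9:121495695-121495794, minus strand: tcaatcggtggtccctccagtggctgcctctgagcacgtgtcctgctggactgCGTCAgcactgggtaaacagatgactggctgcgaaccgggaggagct
Npy, chr6:49822610-49822709, plus strand: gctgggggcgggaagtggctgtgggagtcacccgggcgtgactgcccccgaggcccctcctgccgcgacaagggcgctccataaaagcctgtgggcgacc

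The palindrome of Sst began 48 bases before the start and the core of Cck 47 bases before it. The core of Cort lay closer, at 18 bases, and the printed stretch of Npy holds none. Genes with the core were thus found both among those with non-overlapping groups (Cck, Cort) and among those with overlapping groups (Sst, Vip, Tac1, Adcyap1). A match of letters is a description and not a mapped binding site. Of 14 genes of cyclic AMP and activity signalling, among them Creb1, Fos, Egr1, Bdnf and Nr4a1, none was called by DESeq2, 2 had an unadjusted p under 0.05 and 12 had a fold change below 0 (median log2 fold change -0.15). Egr1 had -0.31 (SE 0.12, adjusted p = 0.269, DESeq2) and Bdnf, a growth factor gene induced by activity, -0.21 (SE 0.10, adjusted p = 0.465).

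Seed sites of microRNAs were looked up because AGO2 carries microRNAs to such sites. Binding of AGO2 to the sites below was not measured in these libraries. Mature sequences of 14 of 15 brain microRNAs looked up were found in the RefSeq table, without mmu-miR-124-3p. The set includes microRNAs that the paper names for AGO2-L192P. From cultured neurons, the paper places miR-92-3p among those enriched on the mutant protein and miR-5121 among those depleted. A site is the exact 7-base complement of the seed, bases 2 to 8 of the microRNA, within the 3′ UTR that GENCODE M39 (GRCm39) gives for the canonical transcript. Penk and Cck were the members with a site for miR-92a-3p, which 8.06% of the 14897 3′ UTRs of tested genes hold. Their sites are shown because these are the 2 genes called, with the seed and the site letters in capitals:
mmu-miR-92a-3p: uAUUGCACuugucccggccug
Penk 3′ UTR, bases 467 to 473 for the site: aaataagtaaGTGCAATgga
Cck 3′ UTR, bases 132 to 138 for the site: tgtccagagtGTGCAATgca

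Penk, with a 3′ UTR of 1117 bases, also held a site of miR-5121 (11.2% of 3′ UTRs). Cck, whose annotated 3′ UTR is 3439 bases long against a median of 1362, held further sites of miR-29a-3p (16.7%), miR-7a-5p (15.1%), miR-138-5p (15.7%) and miR-409-3p (11.0%). Sst held one site each of miR-132-3p and miR-181a-5p, and Vip one of miR-30a-5p. No site of the 14 was found in Npy, Cort, Pdyn, Tac1, Crh or Adcyap1, whose 3′ UTRs ran from 180 bases (Npy) to 3634 (Adcyap1). The 2 called genes each had at least 1 site, as did Sst and Vip, which had fold changes near 0. Npy, with no site of the 14 in its 180 bases, had a lower point estimate than Cck. Whether seed sites had a part in any of these differences was not tested. These counts are descriptions of letters, and microRNA levels were not measured in these libraries.

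Vip and Crh mark another interneuron class, and neither passed the test. Vip encodes vasoactive intestinal peptide (chromosome 10, 5589186 to 5599956, plus strand). Its normalized counts were 855, 951, 935 and 1197 in L192P and 993, 1083, 957 and 880 in WT. The groups overlapped fully, with a log2 fold change of 0.0054 (95% interval -0.20 to 0.21, adjusted p = 0.998, DESeq2). The log2 ratio of Vip to Htr3a, the serotonin receptor channel of this lineage, differed by -0.24 (exact two-sided permutation test, p = 0.486), and that of Crh to Vip by -0.20 (p = 0.171).

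Crh encodes corticotropin-releasing hormone (chromosome 3, 19747565 to 19749655, minus strand). It had 143, 206, 191 and 237 normalized counts in L192P and 232, 216, 197 and 234 in WT. L192P replicate 1 was the lowest of the 8 and the other 3 lay near the WT values. The log2 fold change was -0.18 (95% interval -0.48 to 0.12, adjusted p = 0.828, DESeq2) and -0.03 without both replicate 1 libraries. Its receptors Crhr1 and Crhr2 and its binding protein Crhbp were not called, with log2 fold changes of 0.15, 0.46 and -0.03.

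Adcyap1 encodes PACAP, a relative of Vip (chromosome 17, 93506397 to 93515189, plus strand). The L192P libraries had 362, 413, 507 and 606 normalized counts and the WT libraries 526, 575, 527 and 554. The 4 L192P libraries spread on both sides of a narrow WT range (SD 108 against 23.3, n = 4). The log2 fold change was -0.21 (95% interval -0.48 to 0.06, adjusted p = 0.699, DESeq2), and -0.10 without L192P replicate 1. The log2 ratio of Adcyap1 to Slc17a7 differed by -0.10 (exact two-sided permutation test, p = 0.714), and by 0.05 without L192P replicate 1. Adcyap1r1, the PACAP receptor, had 3673, 3825, 4016 and 3689 in L192P and 3407, 3524, 3521 and 3555 in WT. These groups did not overlap, but the difference was small (log2 fold change 0.12, SE 0.05) and did not pass the test (adjusted p = 0.406).

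**Figure D3:**
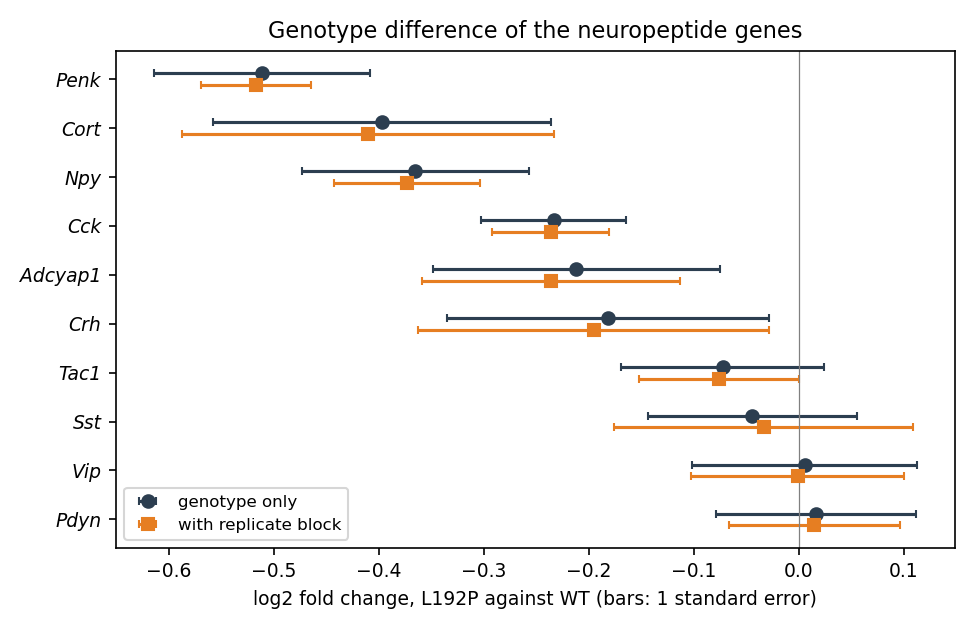
Log2 fold change of L192P against WT (horizontal axis) for the 10 peptide genes, with bars of 1 standard error, from DESeq2 with genotype only (circles) and with the replicate number as a block (squares). The block shortens the bars of Penk and Npy, lengthens that of Sst, and leaves every estimate within 0.1 of its value without the block.

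Of the 22 genes for receptors of the peptides and for Crhbp, 21 were tested, 1 was called higher and none lower. Tacr2, a neurokinin receptor, had 0 to 7.28 normalized counts and was not tested. Sstr5, a somatostatin and cortistatin receptor, had 34.6, 29.6, 16.1 and 30.0 normalized counts in L192P and 11.8, 10.2, 6.52 and 10.5 in WT. The groups did not overlap (log2 fold change 1.49, SE 0.41, adjusted p = 0.0255, DESeq2). These are low counts. The adjusted p was 0.112 to 0.163 when L192P replicate 1, 2 or 4 or WT replicate 2, 3 or 4 was left out, and 0.0823 to 0.117 by edgeR and limma. It was undefined without WT replicate 1, without both replicate 1 libraries and with the block, and 0.0221 without L192P replicate 3.

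The 4 other somatostatin receptors, Sstr1 to Sstr4, had log2 fold changes of 0.10, -0.17, 0.11 and -0.09. Among the receptors of neuropeptide Y, Npy1r and Npy5r had 0.07 and -0.0046, and Npy2r had 0.54 (SE 0.32, adjusted p = 0.647, and 0.0152 with the replicate block, DESeq2). Npy2r had 299, 253, 408 and 274 normalized counts in L192P and 280, 163, 284 and 123 in WT, so the groups overlapped while each L192P library lay above the WT library of the same number. The receptors shared by Vip and PACAP had -0.24 (Vipr1) and 0.93 (Vipr2, adjusted p = 0.589, raised by L192P replicate 3 with 83.0 against 13.7 to 28.0). Tacr1 and Tacr3 had 0.10 and 0.42. The median over the 21 was 0.10, and the summed level was 9849 to 10191 normalized counts in L192P and 9354 to 10187 in WT.

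**Figure D4:**
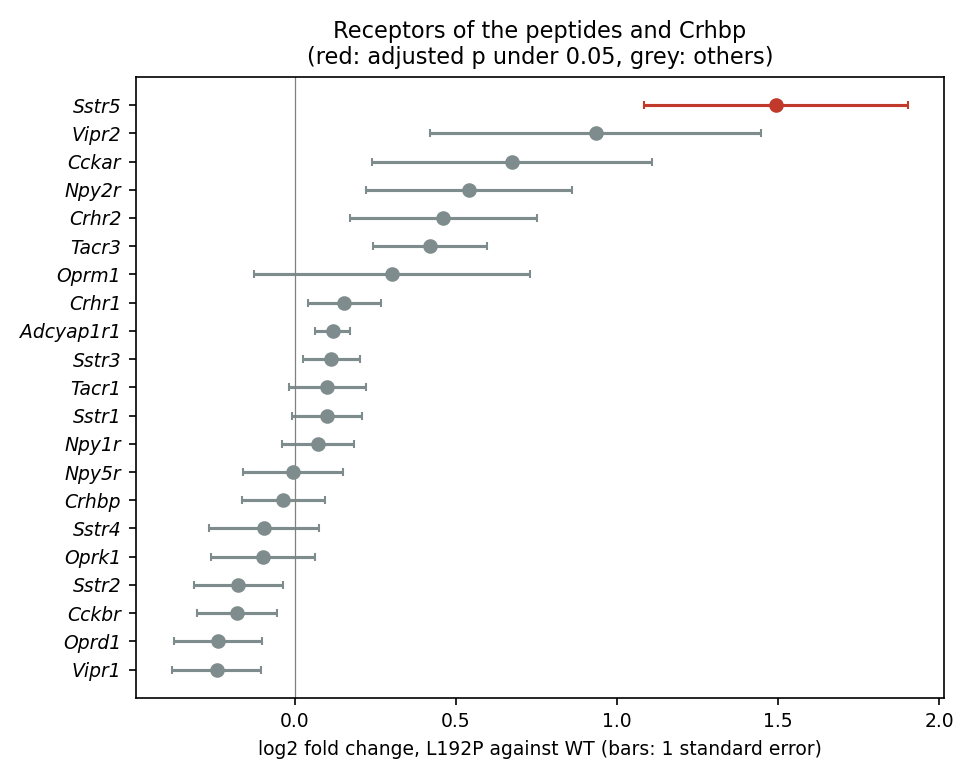
Log2 fold change of L192P against WT (horizontal axis) with bars of 1 standard error for 21 receptor and binding protein genes, ordered by value, with the called gene in red. Sstr5 stands at the top at 1.49, and most others lie between -0.24 and 0.54.

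No gene that processes and stores the peptides was called. Of 14 genes for prohormone cutting, trimming, amidation and dense-core vesicles, 2 had an unadjusted p under 0.05 (DESeq2) and the median log2 fold change was -0.03. Pcsk1 and Pcsk2, the convertases that cut the precursors, had -0.01 and -0.13 (SE 0.10 and 0.06), and Cpe, the carboxypeptidase that trims them, -0.04 (SE 0.07). With the replicate block Cadps2, a vesicle priming factor, was called lower (adjusted p = 0.0495), with a log2 fold change of -0.22.

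The GABAergic markers leaned the other way. Of 22 such genes, 4 were called higher and none lower, 20 had a fold change above 0, and the median log2 fold change was 0.27. Their summed level was 45152 to 50264 normalized counts in L192P and 43715 to 45581 in WT. The called genes were Calb2, the calretinin gene that many Vip cells make, at 1.11 (SE 0.29, adjusted p = 0.0144), Ndnf of neurogliaform cells at 0.50 (adjusted p = 0.00921), Tac2, a neurokinin B precursor, at 0.53 (adjusted p = 0.0144) and the GABA enzyme Gad2 at 0.34 (adjusted p = 0.0235, DESeq2). None of the 4 was called without WT replicate 2 or without WT replicate 3. Lhx6, which marks the lineage of Sst cells, had 0.27 (adjusted p = 0.508), and the log2 ratio of Sst to Lhx6 differed by -0.29 (exact two-sided permutation test, p = 0.114, adjusted 0.286). With the replicate block 6 were called higher and 2 lower, the latter Pvalb and Lamp5, at -0.22 and -0.31.

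Without the block no pyramidal cell marker was called by DESeq2, while most tested hypothalamic, thalamic and olfactory bulb markers had fold changes above 0. Of 11 excitatory neuron markers none was called by DESeq2, 4 had an unadjusted p under 0.05, 9 had a fold change below 0 and the median was -0.13, and 4 were called lower with the block. Their summed level was 42918 to 48222 normalized counts in L192P and 48563 to 50084 in WT, without overlap. Slc17a7 made up most of this sum, with 28887 to 34033 over the libraries. In 0 of the 11 did every L192P library lie below every WT library, and in 1, Foxp2, every L192P library lay above. The part of these markers in the Cck value was not tested. Of 11 hypothalamic markers 7 were tested, and Oxt, Avp and Otp were called higher, with log2 fold changes of 4.53, 4.22 and 3.41. The groups overlapped in Avp, with 19.3 normalized counts in L192P replicate 2 against 21.9 in WT replicate 1. Of the 7 tested, 6 had a fold change above 0 and 1 below, with a median log2 fold change of 2.09. Pomc and Ghrh had log2 fold changes of -0.12 and -0.0065, and Agrp had 0.52. Trh had 0.92 (adjusted p = 0.0547, and 0.0022 with the replicate block, DESeq2). The summed level of the 11 genes was 236 to 1299 normalized counts in L192P against 129 to 262 in WT, with overlap. Hcrt, Pmch, Nr5a1 and Sim1 of that list were at 0 in at least 1 library. In L192P replicate 3, Hcrt and Pmch had 178 and 262 normalized counts, against 0 to 16.8 in the other libraries. Gbx2 of 8 thalamic markers and Eomes of 5 olfactory bulb markers were called higher, at 1.99 and 1.70. Of the 8 thalamic markers, 7 had a fold change above 0 and 1 below, with a median log2 fold change of 0.66. For the olfactory bulb 4 markers were tested, 3 above 0 and 1 below, with a median of 0.81. None of 10 hippocampal and 12 glial or vascular markers was called by DESeq2, with 0 and 1 at an unadjusted p under 0.05. Hypothalamic neurons also make several of the 10 peptides. The part of these tissues in the peptide values and in the GABAergic markers, such as Calb2, Tac2 and Gad2, was not tested.

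Per kilobase of annotated exon, Penk was the most abundant of the 10 messages in the WT libraries, with 124 ± 11.6 CPM (counts scaled to library total) per kilobase (SD, n = 4). The same libraries held markers of striatal projection neurons, with a summed level of 30179 to 36698 normalized counts in WT. The part of striatal RNA in the levels of Penk, Tac1 and Pdyn was not tested. Sst had 63.8 ± 10.9 and Cck 59.3 ± 2.77, whose ranges over libraries overlapped. Npy followed at 40.9 ± 3.0, below the ranges of both. Tac1 had 16.4 ± 1.63 and lay above Cort (12.1 ± 0.987) and Pdyn (10.8 ± 0.971), which overlapped with each other. Crh had 6.31 ± 0.518, and Vip (4.57 ± 0.429) and Adcyap1 (4.34 ± 0.167) overlapped at the bottom. In L192P the levels were 88.2 ± 12.5 for Penk, 51.3 ± 3.85 for Cck, 32.3 ± 4.86 for Npy and 9.41 ± 1.97 for Cort. The order depends on the length used. With the canonical transcript Npy was at 131 and Vip at 25.4 in WT, which put Vip above Pdyn and Cort, because the union of exons of Vip spans 8693 bases against 1567 in that transcript.

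**Figure D5:**
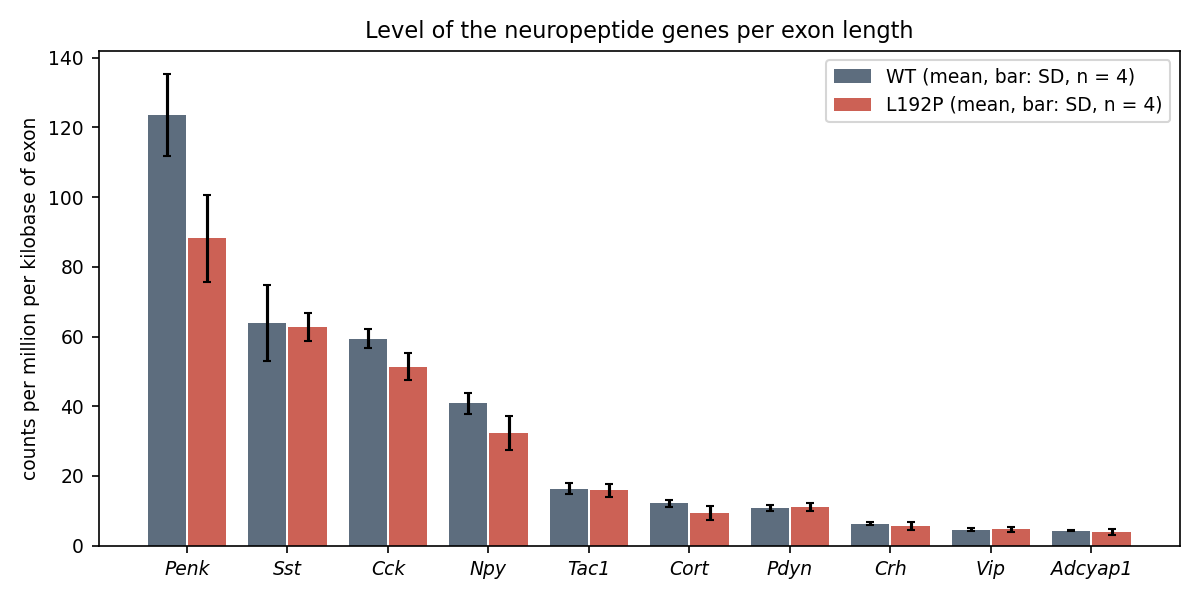
Level of the 10 peptide genes in CPM per kilobase of the union of exons (vertical axis), as means with SD bars over 4 WT (dark) and 4 L192P (red) libraries. Penk leads at 124 in WT and 88.2 in L192P, and the 3 genes on the right are under 7 in both genotypes.

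Cck, Cort and Npy correlated with each other over the 8 libraries, and Penk less so with Cck and Cort once the genotype means were taken out. Over the 8 libraries, log2 values of Cck and Cort correlated at r = 0.957, and at 0.944 after the genotype means were taken out. Npy correlated with Cck at 0.908 (0.768 within genotype), with Cort at 0.868 (0.732) and with Penk at 0.879 (0.685). Penk and Cck had 0.810 over all libraries and 0.373 within genotype, and Penk and Cort 0.704 and 0.309. Within genotype Penk stood closer to Crh (0.853), Pdyn (0.806) and Tac1 (0.719). Sst had values of 0.459 or less with every other member over all libraries, and of 0.561 or less within genotype. These correlations are descriptions over points that share library, depth and, in the first value, the genotype difference.

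Of 13415 genes compared, those most alike to Npy over the 8 libraries were Vgf (r = 0.995), Hras (0.975) and Nudt3 (0.971). Vgf had 5251, 6954, 6061 and 6477 normalized counts in L192P and 6711, 7773, 7151 and 7300 in WT, and its groups overlapped. Penk was most like Lmbrd1 (0.973), Slc35d3 (0.971) and H2ac25 (0.967), and Cck was most like Smim3 (0.968), Cort (0.957) and Fahd1 (0.950). For Cort they were Atp5d (0.971), Tap2 (0.960) and Cck. Sst was most like Pi4k2b (0.983), 1110038F14Rik (0.955) and Polr3gl (0.951), Vip most like Lhfpl4 (0.939), Ndufb4 (0.939) and Sec61g (0.915), and Adcyap1 most like Mrps21 (0.973), Nelfe (0.973) and Ndufa7 (0.967). Pdyn, Tac1 and Crh were led by Pbdc1 (0.957), Lrrtm4 (0.977) and Gas2l3 (0.967).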

How the data were processed

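RNA from mouse cerebral cortex was sequenced as stranded mRNA in 4 L192P and 4 WT libraries. The authors aligned reads with STAR 2.7.9a to GRCm39 and deposited raw counts per gene from featureCounts 1.5.1, with a table of normalized signal, the counts divided by DESeq2 size factors (versions per the submitters' processing notes). That table matched the counts over size factors computed here within 3.49e-10. The strand setting and Ensembl release are not given in the sources used here. Where the strand is not used, reads in bases shared with an antisense gene cannot be assigned by strand. How such reads were counted is not given either.

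DESeq2 1.42.0 in R 4.3.3 was run on all genes with genotype as the only term and a call at a Benjamini-Hochberg adjusted p under 0.05. The study's methods name the tool and the threshold and state no design formula. Independent filtering and the Cook filter left 18627 genes. Fold changes are unshrunken. edgeR 4.0.16 (quasi-likelihood) and limma 3.58.1 (voom, and trend with pseudocounts 1 and 0.5) were alternatives, with other size factors, filters, a replicate block and omitted libraries. Ratios of normalized counts were compared by exact permutation over libraries, and, as an alternative chosen after seeing the data, within pairs of the same number. The DESeq2, edgeR and limma fits were tested on simulated counts, and the unpaired permutation test on a fully separated example. The sign-flip test and the sequence searches were not tested in this way.

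Same-genotype libraries differed by more than sampling noise (chi-square per degree of freedom 5.52 to 22.6). The labels number the replicates without saying what a number marks. Deviations from the group mean correlated at 0.233 to 0.628 between libraries of the same number and at -0.375 to 0.144 between the 12 other pairs (13422 genes), so the numbers were taken to pair the libraries. The labels do not tie each library to its own animal, and p-values measure the spread between these libraries.

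The 10 genes and all lists were chosen with earlier results of these data known. Named were the 10 genes in every library, called genes of each list (at most 5), the receptors, and the 3 genes with the highest r to a member over the 8 libraries, among genes with a mean of at least 50 normalized counts. A few list genes are not reported here and were left out of their lists. Examples of uncalled list genes were chosen after their values were seen. Annotation was GENCODE M39 (98.8% of gene identifiers matched), and promoters and microRNAs came from RefSeq (GRCm38.p6). Depth was 20396357 to 43575900 counts, which leaves low-count genes such as Sstr5 with coarse fold changes.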

Additional observations from a re-analysis of the deposited data

Results flagged for a closer look

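Of 104 groups of 4 libraries screened, 8 held a library far from the other 3, where chance alone flags about 1 in 20, or 5.2. L192P replicate 1 was low for Cck, with 5946 normalized counts against 7001 to 7132, for the log2 ratio of Cck to Slc17a7, at -2.45 against -2.08 to -2.04, and for the log2 ratio of Pdyn to Drd1, at -0.36 against 0.07 to 0.15. Without this library the Cck log2 fold change was -0.18 with an adjusted p of 0.0815 (DESeq2). Among receptors, Vipr1 was high in WT replicate 2, at 637 against 440 to 445, and Tacr3 in WT replicate 1, at 104 against 79.6 to 83.6. Among hypothalamic markers, Oxt was low in L192P replicate 2, at 19.3 against 143 to 155. In WT replicate 1, Avp was high at 21.9 against 10.5 to 11.9, and Otp at 11.8 against 1.09 to 1.17. The part of RNA from neighbouring tissue in these values was not tested.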

How the results depend on the processing

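The log2 fold changes of Penk, Cck, Npy, Cort, Crh and Adcyap1 stayed below 0 under all 19 alternatives, and their calls did not. Penk was called under 14 of the 19, Npy under 5 and Cck under 4, and the other members under none. Penk fell short at log2 fold changes of -0.51 (edgeR), -0.52 (limma-voom) and -0.52 (limma-trend, either pseudocount). Cck fell short at -0.23 (edgeR), -0.24 (limma-voom), -0.24 (limma-trend, either pseudocount), -0.21 (total-count size factors) and -0.23 (independent filtering off). Npy passed at -0.37 with TMM size factors and at -0.37 with the replicate block, which changed no other member's call. The sign of Vip turned at -0.014 (limma-voom), -0.0024 (TMM) and -0.0012 (replicate block). The spread between 4 libraries a genotype limits these calls, and depth limits the low receptor genes. Apart from the fewer libraries in the omissions and the fewer or more genes tested under other filters, the cause of each lost call was not tested.

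Over the omissions of 1 library or of both replicate 1 libraries, the log2 fold change ran from -0.60 to -0.44 for Penk, from -0.26 to -0.17 for Cck, from -0.45 to -0.27 for Npy, from -0.13 to 0.089 for Sst, from -0.10 to 0.072 for Vip, from -0.044 to 0.095 for Pdyn and from -0.14 to 0.011 for Tac1. The sign of Sst turned without WT replicate 1 and without both replicate 1 libraries, and that of Tac1 without both. The number of members called ran from 1 to 2, and was 0 by edgeR and limma and 1 with total-count size factors and with independent filtering off. Without both replicate 1 libraries the 1 call was Npy.

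The number called among receptors ran from 0 to 1 over the omissions and was 0 by edgeR and limma. Among GABAergic markers it ran from 0 to 7, and was 1 by edgeR, limma-voom and limma-trend and 8 with the replicate block. Among striatal markers it ran from 1 to 4, and was 1 by edgeR and limma-trend, 0 by limma-voom and 5 with the block. Among excitatory markers it ran from 0 to 1, and was 4 with the block. Among processing genes it ran from 0 to 1 and was 1 with the block, and among glial and vascular markers from 0 to 2 and 1. Among thalamic markers it ran from 0 to 2 and was 0 by edgeR and limma. Among olfactory bulb markers it ran from 0 to 1 and was 0 by edgeR, limma and the block. Among hypothalamic markers it was 3 to 4 over the omissions and 0 by limma-voom, and among activity genes 0 to 1. Over all genes, 253 were called, against 53 by edgeR, 45 by limma-voom and 51 by limma-trend, and 228 higher and 305 lower with the block. With total-count size factors 168 were higher and 64 lower, against 147 and 106, and the median of all genes was 0.03.

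Levels in WT, in CPM per kilobase, moved with the length. With the longest transcript they were 10.8 for Vip, 68.2 for Cck, 157 for Penk, 15.6 for Pdyn, 31.0 for Tac1 and 4.59 for Adcyap1. With the canonical transcript, a choice made after seeing the data, they were 134 for Sst, 131 for Npy, 25.4 for Vip, 81.2 for Cck, 157 for Penk, 21.8 for Pdyn, 31.6 for Tac1 and 4.64 for Adcyap1. When 1 library was left out, the difference in the log2 ratio of Adcyap1 to Slc17a7 ran from -0.24 to 0.05. Its sign turned without L192P replicate 1. The difference for Cck to Slc17a7 ran from -0.14 to -0.0041 and for Vip to Htr3a from -0.46 to -0.08. For Crh to Vip it ran from -0.26 to -0.12 and for Tac1 to Drd1 from 0.05 to 0.18. Within pairs of the same number no ratio passed the test, where 4 pairs cannot give a p under 0.125.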
